A study of Bos taurus with 18 samples.

Results

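The genes described here are 8 immediate early and early stress response genes of bovine preovulatory follicle cells: FOS, JUN, JUNB, ATF3, EGR1, MYC, IER3 and DUSP1. They were chosen by symbol, as every probe set that the array's annotation assigns to 1 of these symbols, which gave 14 probe sets of 8 genes among 24016 probe sets tested and 9155 genes with a symbol of their own. The choice was made with earlier results of these data known. JUN had 5 probe sets, FOS and EGR1 had 2 each, and JUNB, ATF3, MYC, IER3 and DUSP1 had 1 each. Where a gene had several, the probe set of highest mean was read for the gene and the others were read beside it.

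Immediate early genes are switched on within minutes of a signal by transcription factors that already sit in the cell, so their first wave of transcription needs no new protein, and their messages are usually short-lived. FOS, JUN and JUNB are subunits of AP-1, a dimeric basic leucine zipper transcription factor, and ATF3 is a stress-induced member of the same zipper superfamily. EGR1 is a zinc finger factor induced through the ERK cascade and serum response factor, and in the follicle gonadotropins act through cyclic AMP and, through EGF-like ligands, on ERK. MYC drives growth and cell cycle genes, IER3 is an early response protein linked to cell survival, and DUSP1 is the phosphatase that removes phosphate from p38, JNK and ERK and so ends their signal.

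The study collected the single dominant follicle of 6 cows and hybridised RNA of 3 cell preparations from each follicle to Affymetrix bovine arrays, 18 arrays in all. Cows A, B and C were sampled 22 h after GnRH, which was given to induce the LH surge (the growth notes count the same interval from the surge itself), and cows D, F and G before the surge. The 6 groups of 3 arrays were theca after LH, antral granulosa after LH, membrane granulosa after LH, theca before LH, antral granulosa before LH and membrane granulosa before LH. Antral granulosa were the cells aspirated with the follicle's contents and membrane granulosa those still attached to the follicle wall, so a cow gave 1 array of each preparation, and the cows before and after LH were different animals. No treatment other than GnRH and no genotype or age was stated for any group.

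All values are RMA signals on the log2 scale, so 1 unit is a doubling; levels are compared between arrays for 1 probe set, not between probe sets. Array medians lay between 5.74 and 5.86, and pairs of arrays within a group correlated at 0.97 to 0.99. The table holds no detection calls, so 4.62, the level below which 33.3% of probe sets lay by their mean, was used to mark dim values. A difference given as at least some value is the brighter group's mean minus 4.62, where the other group's arrays were all below 4.62. It is a point value and carries no sampling error. The labels were checked on 3 steroid and hormone genes of the follicle: INSL3, a hormone of theca, read 13.95 to 14.84 on the 6 theca arrays, against 9.28 to 11.08 on the 6 antral arrays and 10.87 to 14.04 on the 6 membrane arrays, the highest of which reached into the theca range. CYP17A1, the androgen-synthesis enzyme of theca, read 12.67, 10.48 and 12.11 in theca of cows D, F and G before LH. In membrane granulosa of these cows it read 10.42, 4.90 and 8.84. CYP19A1, the aromatase of granulosa, read 11.97 to 13.92 on the granulosa arrays before LH and 10.85, 11.82 and 8.21 in theca of cows D, F and G. After LH CYP17A1 read 5.28 to 5.61 in theca and 4.78 to 5.65 in antral granulosa. CYP19A1 read 3.70 to 5.29 on all after-LH arrays, so neither gene checks the after-LH labels. Over 10 granulosa markers the mean level was 8.26 to 8.75 in antral granulosa after LH against 10.71 to 11.12 before, 8.14 to 9.18 in membrane granulosa after LH against 10.98 to 11.32 before, and 7.49 to 7.79 in theca after LH against 8.93 to 9.80 before. In whole-preparation RNA, fewer cells of a type and less RNA per cell cannot be told apart, and this applies to every difference below.

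**Figure D1:**
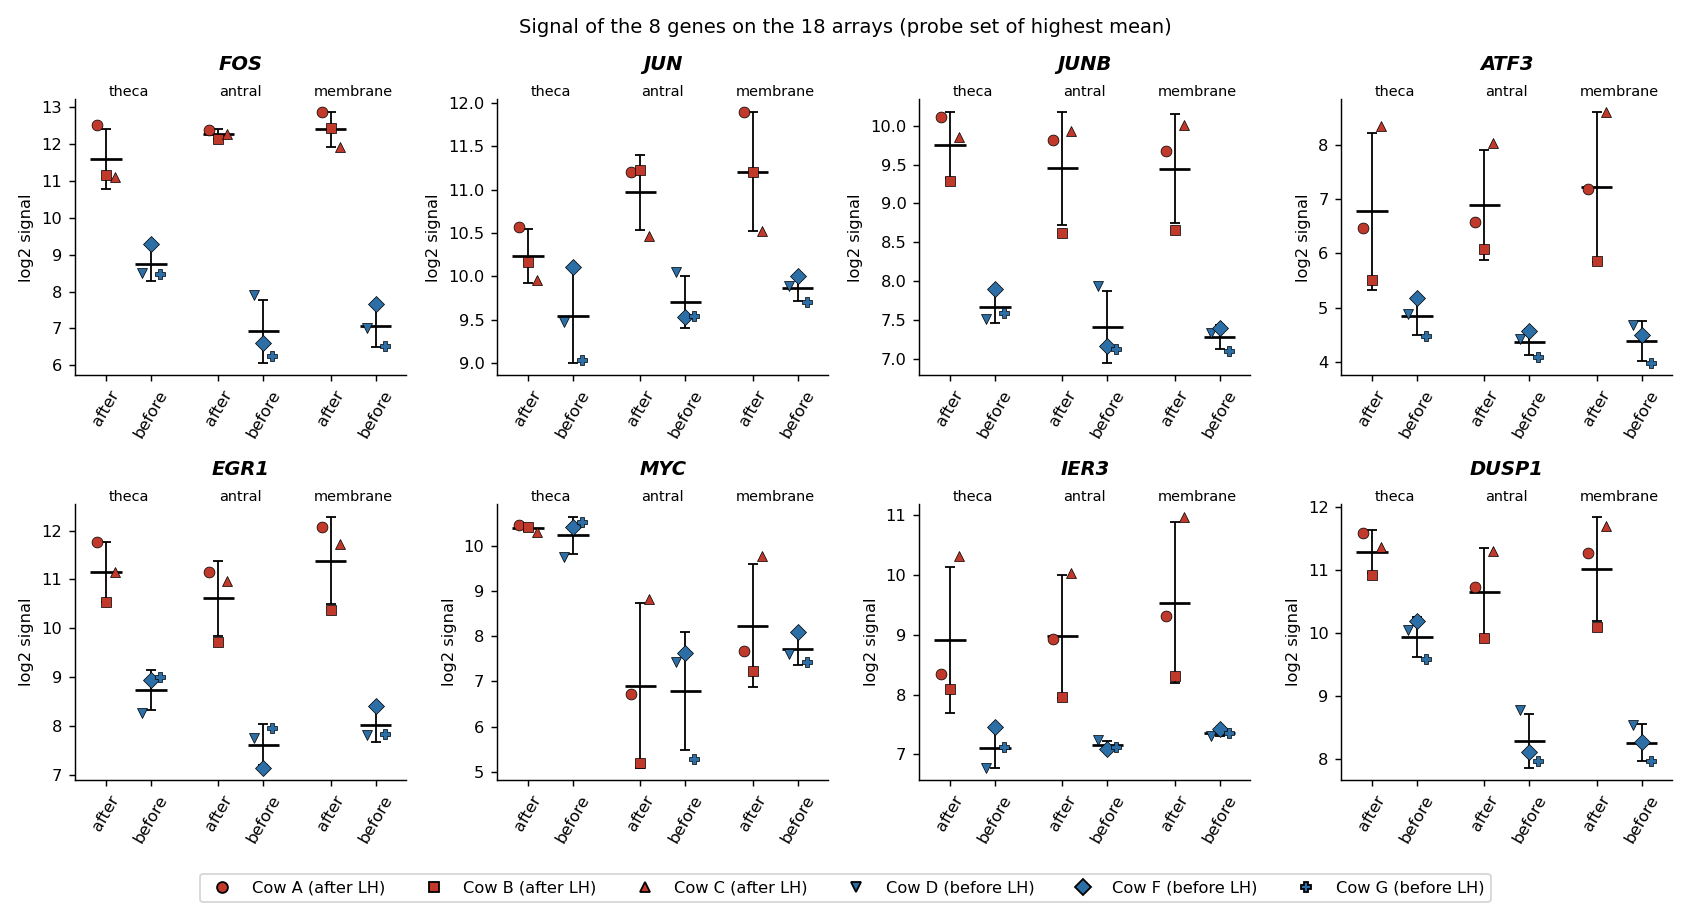
Log2 signal (vertical axis) of each of the 8 genes on the 18 arrays, by cell preparation, with arrays after LH left of those before LH. Symbols mark the cows and bars the mean with SD of 3 arrays; the after-LH arrays of FOS, JUNB, ATF3, EGR1, IER3 and DUSP1 lie above the before-LH arrays of the same preparation, while those of MYC overlap.

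At 22 h after GnRH, 7 of the 8 genes were higher in membrane granulosa, 6 in antral granulosa and 3 in theca, and none was lower in any preparation. FOS moved most, 7.16-fold in theca, 40.3-fold in antral granulosa and 40.2-fold in membrane granulosa, and EGR1, JUNB and DUSP1 rose between 4.14-fold and 10.3-fold in granulosa. MYC passed in none. These are calls at an adjusted p below 0.05 by limma, with Benjamini-Hochberg adjustment over all 24016 probe sets and 3 cows against 3. The 3 preparations come from the same 6 cows, so their calls are not independent of each other. Over all 9155 genes, 13.1% were called higher in membrane granulosa, 12.6% in antral granulosa and 2.34% in theca. The 8 genes were chosen with earlier results of these data known, so the shares are no test of the 8 as a set. Every after-LH array was above every before-LH array for 6 of the 8 genes in theca, 7 in antral granulosa and 7 in membrane granulosa, against 11.1%, 19.7% and 18.6% of all genes. The median LH effect of the 8 genes was 1.86 in theca, 2.21 in antral granulosa and 2.47 in membrane granulosa on the log2 scale, beside -0.01, -0.03 and -0.03 over all genes.

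FOS, the AP-1 subunit that dimerises with JUN proteins and cannot pair with itself, gave the strongest response. FOS in theca read 12.52, 11.16 and 11.10 after LH (cows A, B and C), against 8.49, 9.30 and 8.47 before LH (cows D, F and G). FOS in antral granulosa read 12.38, 12.12 and 12.28 after LH, against 7.89, 6.62 and 6.27 before. FOS in membrane granulosa read 12.85, 12.44 and 11.91 after LH, against 7.003, 7.67 and 6.53 before. The groups were separated in each preparation, most widely in granulosa, and the before-LH theca arrays stood above those of both granulosa preparations. The LH effect was 2.84 ± 0.44 in theca (SE, adjusted p = 0.00147), 5.33 ± 0.44 in antral granulosa (adjusted p = 3.8e-07) and 5.33 ± 0.44 in membrane granulosa (adjusted p = 5.9e-07). The other FOS probe set, Bt.2899.1.S1_at, ran alongside Bt.2899.1.S2_at with a correlation of 0.98 over the 18 arrays. It gave LH effects of 2.92 in theca, 4.48 in antral granulosa and 4.61 in membrane granulosa, with adjusted p of 0.000805, 1.29e-06 and 1.45e-06.

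JUN, the main partner of FOS in AP-1, read 9.04 to 10.11 before LH on its brightest probe set and moved less than FOS. JUN in theca read 10.57, 10.17 and 9.96 after LH, against 9.48, 10.11 and 9.04 before. JUN in antral granulosa read 11.21, 11.23 and 10.47 after LH, against 10.05, 9.53 and 9.54 before. JUN in membrane granulosa read 11.90, 11.20 and 10.52 after LH, against 9.89, 10.001 and 9.70 before. Theca of cow F before LH lay above theca of cow C after LH, so the theca groups overlapped, while the granulosa groups did not. JUN rose by 1.26 ± 0.33 in antral granulosa (2.40-fold, adjusted p = 0.0109) and by 1.34 ± 0.33 in membrane granulosa (2.54-fold, adjusted p = 0.00772); in theca the effect was 0.69, with a 95% confidence interval of -0.01 to 1.39 and an adjusted p of 0.336. The antral call was lost without cow B (adjusted p = 0.0737) and the membrane call without cow A (adjusted p = 0.059).

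Of the 4 further JUN probe sets, Bt.11159.1.S1_at, Bt.13134.1.S1_at and Bt.9153.1.S1_at gave calls of the same direction in granulosa and none in theca. Bt.11159.1.S1_at gave 0.82 in theca, 1.64 in antral granulosa and 1.52 in membrane granulosa (adjusted p = 0.358, 0.00741 and 0.0126). Bt.13134.1.S1_at gave 0.57, 1.65 and 1.73 in the same order (adjusted p = 0.674, 0.0239 and 0.0199), and Bt.9153.1.S1_at gave 0.68, 1.47 and 1.34 (adjusted p = 0.181, 0.000451 and 0.00109). These 3 and the JUN probe set read for the gene, Bt.19504.1.S1_at, correlated with each other at 0.84 to 0.97 over the 18 arrays. Bt.13134.1.A1_at stood apart from them: it was below 4.62 on all 18 arrays, with a mean of 3.80, correlated with the others at 0.03 to 0.21 and gave no call after LH.

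JUNB, an AP-1 subunit that in many cells restrains JUN and activates its own set of targets, rose in the 3 preparations. JUNB in theca read 10.12, 9.29 and 9.86 after LH, against 7.50, 7.90 and 7.59 before. JUNB in antral granulosa read 9.81, 8.62 and 9.94 after LH, against 7.94, 7.16 and 7.12 before. JUNB in membrane granulosa read 9.68, 8.66 and 10.01 after LH, against 7.33, 7.40 and 7.10 before. All after-LH arrays were above all before-LH arrays of the same preparation, and cow B was the lowest of the after-LH cows each time. The LH effect was 2.09 ± 0.37 in theca (4.27-fold, adjusted p = 0.00379), 2.05 ± 0.37 in antral granulosa (4.14-fold, adjusted p = 0.000686) and 2.18 ± 0.37 in membrane granulosa (4.52-fold, adjusted p = 0.000462).

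ATF3, a zipper protein that is nearly silent in resting cells and induced by many stresses, was at the dim end of the arrays before LH and varied widely between cows after it. ATF3 in theca read 6.46, 5.51 and 8.34 after LH, against 4.89, 5.17 and 4.49 before. ATF3 in antral granulosa read 6.57, 6.08 and 8.03 after LH, against 4.43, 4.58 and 4.10 before. ATF3 in membrane granulosa read 7.19, 5.85 and 8.61 after LH, against 4.69, 4.50 and 3.98 before. Of the 9 before-LH arrays 6 were below 4.62, among them all 3 antral ones, and cow C was far above cows A and B in each preparation. The effect was 2.52 ± 0.69 in antral granulosa (adjusted p = 0.0142), where the dim before-LH group makes it a difference of at least 2.27, and 2.83 ± 0.69 in membrane granulosa (adjusted p = 0.00737), where 2 of the 3 before-LH arrays were below 4.62. In theca it was 1.92 with an interval of 0.46 to 3.39, which did not pass (adjusted p = 0.16) although the groups did not overlap. The antral call was lost without cow D, F or G (highest adjusted p = 0.0725) and the membrane call without cow G (adjusted p = 0.0558), and theca passed without cow B (adjusted p = 0.0255).

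EGR1 was read by 2 probe sets of very different brightness. On the brighter one, Bt.22265.1.S1_at, EGR1 in theca read 11.77, 10.53 and 11.15 after LH, against 8.26, 8.95 and 9.005 before. EGR1 in antral granulosa read 11.15, 9.72 and 10.96 after LH, against 7.75, 7.14 and 7.96 before. EGR1 in membrane granulosa read 12.06, 10.37 and 11.73 after LH, against 7.81, 8.41 and 7.83 before. The groups were clearly apart in each preparation, with cow B the lowest after LH. EGR1 rose by 2.41 ± 0.45 in theca (5.33-fold, adjusted p = 0.00585), 2.99 ± 0.45 in antral granulosa (7.96-fold, adjusted p = 0.000147) and 3.37 ± 0.45 in membrane granulosa (10.3-fold, adjusted p = 5.76e-05). The theca call was lost without cow D (adjusted p = 0.0687).

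On the dimmer EGR1 probe set, Bt.27980.1.S1_at, all values lay near the dim limit. It read 4.93, 4.73 and 5.004 in theca after LH, against 4.62, 4.69 and 4.42 before. Its antral arrays read 5.25, 5.13 and 4.90 after LH, against 4.48, 4.43 and 4.89 before, and its membrane arrays 5.12, 4.78 and 4.74 after LH, against 4.58, 4.54 and 4.82 before. The after-LH groups were higher by less than 1 unit, and in membrane granulosa they overlapped those before LH. The LH effect passed only in antral granulosa among the 3 preparations, at 0.49 ± 0.15 (adjusted p = 0.0309), and was 0.31 in theca (adjusted p = 0.358) and 0.24 in membrane granulosa (adjusted p = 0.328). Over the 18 arrays the EGR1 probe sets correlated at 0.67.

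MYC, the growth-promoting transcription factor, showed no call after LH in any preparation. MYC in theca read 10.46, 10.41 and 10.32 after LH, against 9.75, 10.42 and 10.52 before. MYC in antral granulosa read 6.71, 5.19 and 8.82 after LH, against 7.44, 7.63 and 5.29 before. MYC in membrane granulosa read 7.68, 7.24 and 9.78 after LH, against 7.61, 8.10 and 7.43 before. Theca was high on all 6 arrays. The antral arrays and the after-LH membrane arrays were scattered, with cow C above the other after-LH cows. The before-LH membrane arrays lay closer together, at 7.43 to 8.10. The LH effects were 0.16, 0.12 and 0.52 in theca, antral and membrane granulosa, with wide intervals of -1.53 to 1.86, -1.57 to 1.82 and -1.17 to 2.21 and adjusted p of 0.964, 0.94 and 0.72. Leaving out 1 cow turned the sign of MYC in each preparation: to -0.076 in theca without cow D, to -0.83 and -0.63 in antral granulosa without cow C or G, and to -0.25 in membrane granulosa without cow C.

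IER3, an early response protein under NF-kappaB and p53 control, was nearly constant in granulosa before LH and spread more widely after LH in each preparation. IER3 in theca read 8.34, 8.09 and 10.32 after LH, against 6.77, 7.45 and 7.12 before. IER3 in antral granulosa read 8.94, 7.96 and 10.03 after LH, against 7.24, 7.09 and 7.13 before. IER3 in membrane granulosa read 9.31, 8.32 and 10.98 after LH, against 7.31, 7.42 and 7.35 before. The after-LH and before-LH arrays did not overlap in any preparation, and cow C was the highest each time. The SD between cows was 1.22 after LH and 0.34 before in theca, 1.03 after LH and 0.08 before in antral granulosa, and 1.34 after LH and 0.05 before in membrane granulosa. The LH effect of 2.18 ± 0.63 in membrane granulosa passed (4.52-fold, adjusted p = 0.0219), while 1.82 ± 0.63 in antral granulosa (adjusted p = 0.0503) and 1.81 ± 0.63 in theca (adjusted p = 0.15) did not. The IER3 calls lay close to the threshold: the membrane call was lost without cow A, D, F or G, with effects of 2.15 to 2.29 (highest adjusted p = 0.0939), and with only the arrays compared (0.0571), antral granulosa passed under 8 of 14 alternative settings (adjusted p of 0.00684 to 0.152), and theca passed without cow B (adjusted p = 0.0421).

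DUSP1, the phosphatase that switches MAP kinases off, rose in granulosa. DUSP1 in theca read 11.59, 10.92 and 11.37 after LH, against 10.05, 10.19 and 9.58 before. DUSP1 in antral granulosa read 10.73, 9.92 and 11.31 after LH, against 8.77, 8.11 and 7.97 before. DUSP1 in membrane granulosa read 11.27, 10.10 and 11.70 after LH, against 8.54, 8.27 and 7.96 before. All 3 preparations had separate groups, and theca before LH was already near the level of the lowest granulosa array after LH. The effect was 2.37 ± 0.39 in antral granulosa (5.16-fold, adjusted p = 0.000318) and 2.77 ± 0.39 in membrane granulosa (6.81-fold, adjusted p = 8.78e-05). In theca it was 1.35, with an interval of 0.52 to 2.18 and an adjusted p of 0.0705, and it passed under 4 alternatives, with the lowest adjusted p, 0.0103, without cow B.

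**Figure D2:**
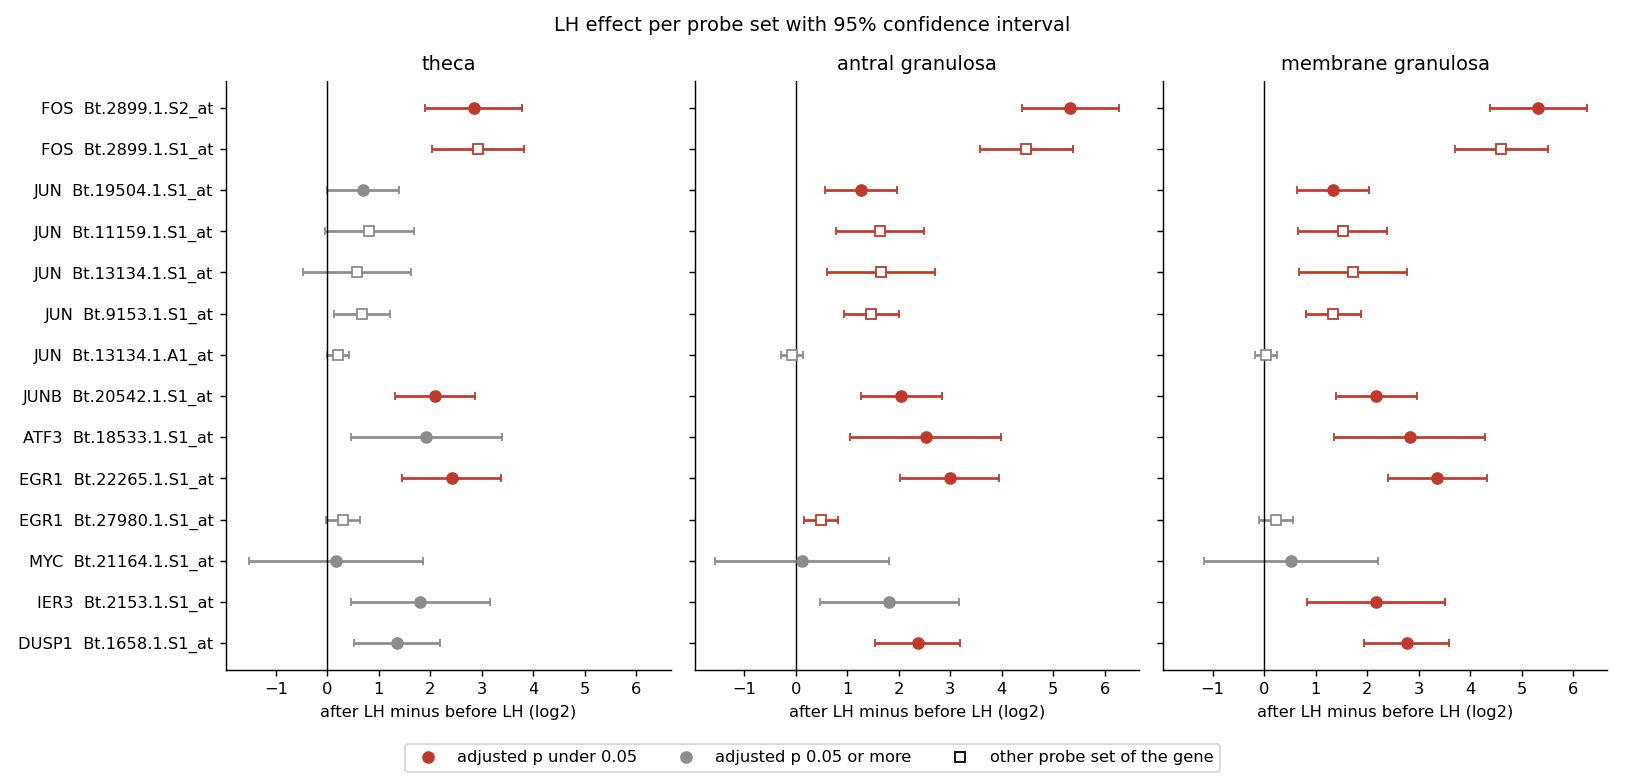
LH effect (after minus before, log2, horizontal axis) of the 14 probe sets in theca, antral granulosa and membrane granulosa, with 95% confidence intervals; squares are the further probe sets of FOS, JUN and EGR1. FOS sits at 5.33 in both granulosa preparations and at 2.84 in theca, and the dim JUN probe set Bt.13134.1.A1_at sits near 0.

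Other measures moved between the same groups. Over 8 fibroblast markers the mean level was 11.69 to 11.89 in theca after LH against 10.72 to 11.49 before, 6.73 to 8.57 in antral granulosa after LH against 5.50 to 5.86 before, and 9.10 to 10.80 in membrane granulosa after LH against 7.63 to 9.11 before. All 8 were above 4.62 on every membrane and theca array after LH and 7 of 8 on every antral array after LH, while COL3A1 and DPT were below it on every antral array before LH. Over 13 leukocyte markers the ranges after and before LH overlapped in each preparation, at 6.34 to 7.17 against 6.35 to 7.22 in theca, 5.42 to 5.62 against 5.02 to 6.41 in antral granulosa and 5.31 to 5.95 against 5.31 to 5.68 in membrane granulosa. Over the 5 theca markers measured of 7, the mean level was 8.12 to 8.39 in theca after LH against 9.28 to 9.84 before, 7.01 to 7.26 in antral granulosa after LH against 6.85 to 7.08 before, and 7.71 to 7.81 in membrane granulosa after LH against 7.03 to 8.95 before; PTCH1 was below 4.62 on all 18 arrays. The part of these cells, and of the granulosa and theca markers, in the LH effects was not tested.

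Before LH, theca carried more FOS, DUSP1, MYC and EGR1 message than membrane granulosa of the same follicles, with none of the 8 genes lower on the probe set read for it. FOS was 3.21-fold, DUSP1 3.21-fold, MYC 5.73-fold and EGR1 1.64-fold higher in theca. These 4 of 8 calls compare with 21.1% of all genes called higher in theca, a large background, and none of 8 lower with 19.3%; 6 of 8 genes were higher in theca in each of cows D, F and G, against 30.2% of all genes. FOS averaged 8.75 ± 0.48 in theca and 7.07 ± 0.57 in membrane granulosa (SD, n = 3 each), a difference within cows of 1.68 ± 0.35 (SE, adjusted p = 0.00238). DUSP1 averaged 9.94 ± 0.32 in theca and 8.26 ± 0.29 in membrane granulosa, with a difference of 1.68 ± 0.20 (adjusted p = 4.74e-05). MYC averaged 10.23 ± 0.42 in theca and 7.71 ± 0.35 in membrane granulosa, with a difference of 2.52 ± 0.60 (adjusted p = 0.00583). EGR1 differed by 0.72 ± 0.24 (adjusted p = 0.0382), a call that was lost without cow A, B or G (highest of these, 0.261 without cow G) and with no cow term (0.274). JUN, JUNB, ATF3 and IER3 gave -0.32, 0.39, 0.46 and -0.25, with adjusted p of 0.29, 0.168, 0.0571 and 0.354. The other FOS probe set gave 0.65 (adjusted p = 0.123) and the dimmer EGR1 probe set -0.07 (adjusted p = 0.771). JUN was lower in theca on Bt.11159.1.S1_at (-0.72, adjusted p = 0.0458), so that with the next brightest probe sets 2 genes were higher and 1 lower.

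The same theca arrays set against antral granulosa gave 5 of 8 genes higher in theca, beside 19.5% of all genes. On the probe set read for each gene none was lower, beside 21.9%, and 5 of 8 were higher in each of the cows, beside 27.8%. The differences were 1.83 ± 0.35 for FOS (adjusted p = 0.0014), 1.65 ± 0.20 for DUSP1 (adjusted p = 4.5e-05), 3.45 ± 0.60 for MYC (10.9-fold, adjusted p = 0.000756) and 1.12 ± 0.24 for EGR1 (adjusted p = 0.00339). ATF3 also passed, at 0.48 (interval 0.11 to 0.85, adjusted p = 0.0446), but its antral arrays were all below 4.62. Its theca mean lay 0.23 above 4.62, and the call was lost without cow A, D, F or G and under 3 further alternatives. EGR1 lost its call with no cow term (adjusted p = 0.0748). JUN, JUNB and IER3 gave -0.16, 0.26 and -0.04 (adjusted p = 0.583, 0.349 and 0.884). The other FOS probe set did not pass, at 0.65 (adjusted p = 0.114), nor did the dimmer EGR1 probe set, at -0.02 (adjusted p = 0.916). JUN was called lower in theca on Bt.13134.1.A1_at (-0.33, adjusted p = 0.0328), with all arrays of both groups below 4.62. Bt.11159.1.S1_at gave -0.60, lower in each of the cows (adjusted p = 0.0871). Bt.13134.1.S1_at and Bt.9153.1.S1_at gave -0.25 and -0.21 with no call.

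After LH fewer of the genes were higher in theca. Against membrane granulosa, MYC was higher in theca by 2.16 ± 0.60 (4.48-fold, adjusted p = 0.0189), while JUN was lower (-0.98 ± 0.22, adjusted p = 0.00576) and IER3 also lower (-0.62 ± 0.19, adjusted p = 0.0291). That is 1 gene of 8 higher and 2 lower, with 15.7% of all genes called in each direction. In each of cows A, B and C theca was below membrane granulosa for 4 genes and above it for 1, beside 31.9% and 31.6% of all genes. FOS gave -0.81 (adjusted p = 0.117), with its other probe set passing at -1.03 (adjusted p = 0.0248). ATF3, EGR1, JUNB and DUSP1 gave -0.44, -0.24, 0.31 and 0.27 (adjusted p = 0.0798, 0.56, 0.325 and 0.381). The dimmer EGR1 probe set gave 0.006 (adjusted p = 0.985). JUN was also lower on Bt.11159.1.S1_at (-1.43), Bt.13134.1.S1_at (-1.84) and Bt.9153.1.S1_at (-0.97), with adjusted p of 0.00166, 0.00644 and 0.0047. None of the 3 gene calls held with no cow term, where the adjusted p were 0.052 for JUN, 0.0737 for MYC and 0.589 for IER3, and the 3 were also lost without cow A (0.0817, 0.175 and 0.22) or cow B (0.0562, 0.142 and 0.0505).

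Against antral granulosa after LH, MYC was higher in theca by 3.49 ± 0.60 (11.2-fold, adjusted p = 0.000766) and DUSP1 by 0.64 ± 0.20 (1.56-fold, adjusted p = 0.0244), and JUN was lower (-0.74 ± 0.22, adjusted p = 0.0186). The 2 genes higher and 1 lower stand beside 22.2% and 20% of all genes. Theca was above antral granulosa in each cow for 3 genes and below it for 1, beside 31.6% and 34.3% of all genes. FOS gave -0.67 (adjusted p = 0.157) and its other probe set -0.91 (adjusted p = 0.0345). EGR1 gave 0.54 (adjusted p = 0.104) and its dimmer probe set -0.20 (adjusted p = 0.314). JUNB, ATF3 and IER3 gave 0.30, -0.12 and -0.06 with no call. The DUSP1 and JUN calls were lost without cow A, without cow B and with no cow term, while that of MYC held under all 13 alternatives run for it.

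**Figure D3:**
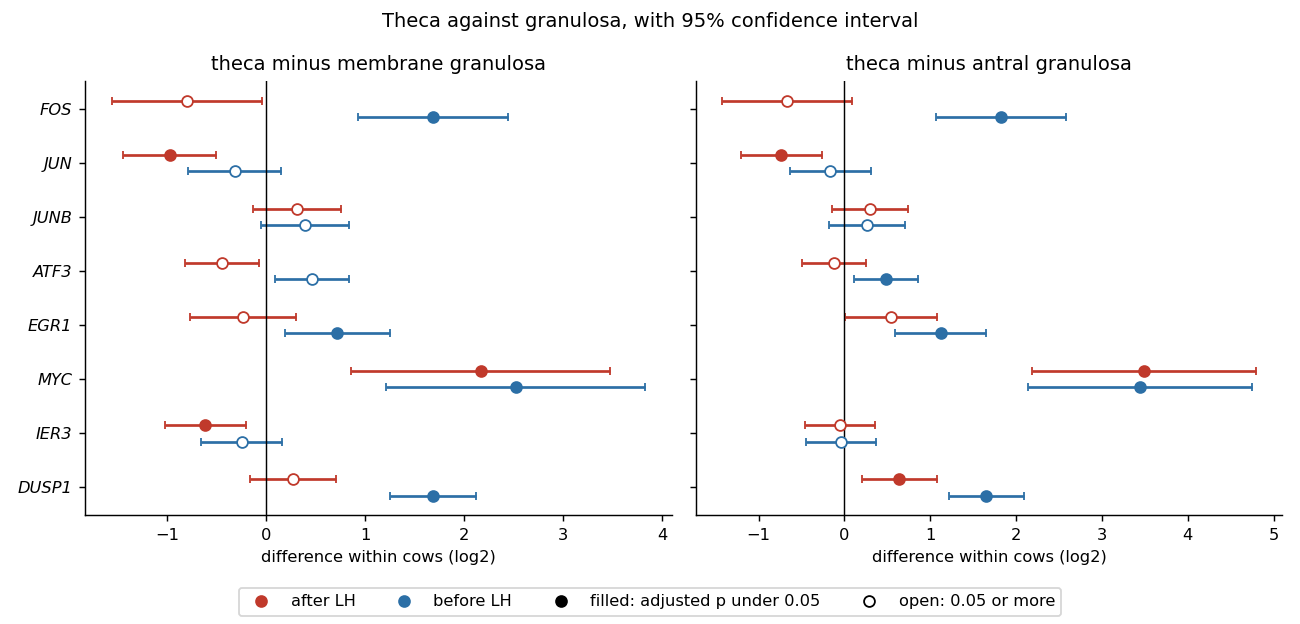
Difference within cows (log2, horizontal axis) between theca and membrane granulosa and between theca and antral granulosa for the 8 genes, after and before LH, with 95% confidence intervals; filled symbols passed at an adjusted p below 0.05. MYC stays to the right of 0 at both times, while FOS lies at 1.68 and 1.83 before LH and at -0.81 and -0.67 after it.

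The theca preparations also held markers of the cells of the follicle wall. Over 10 endothelial markers the mean level was 6.71 to 7.24 on theca arrays, against 4.32 to 4.62 on antral and 4.35 to 5.52 on membrane arrays, and 7 of the 10 before LH and 8 after LH were above 4.62 on every theca array. KDR was below 4.62 on every theca array and VWF on every theca array before LH. Over 8 smooth muscle and pericyte markers the levels were 8.72 to 9.86 on theca, against 5.50 to 6.20 on antral and 6.20 to 7.53 on membrane arrays, with all 8 above 4.62 on every theca array. The fibroblast and leukocyte levels given above were also mostly higher on theca arrays, with a small overlap: the highest membrane array reached 10.80 for fibroblast markers and the highest antral array 6.41 for leukocyte markers. The part of these cells, and of theca markers in membrane granulosa and granulosa markers in theca, in the theca differences was not tested.

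The granulosa preparations were set against each other too, and no gene of the 8 passed in antral against membrane granulosa at either time. Of all genes, 1.05% were called higher and 1.53% lower in antral granulosa before LH, and 1.16% and 2.25% after LH. Before LH the differences for the 8 genes lay between -0.93 (MYC) and 0.13 (JUNB). After LH antral granulosa was lower in each of cows A, B and C for 4 of the 8 genes, beside 26.6% of all genes: EGR1 at -0.78 (interval -1.31 to -0.24, adjusted p = 0.0939), MYC at -1.32 (-2.63 to -0.02, adjusted p = 0.212), IER3 at -0.56 (-0.97 to -0.15, adjusted p = 0.109) and DUSP1 at -0.37 (-0.80 to 0.06, adjusted p = 0.286). With only these arrays in the fit, EGR1 and MYC passed (adjusted p = 0.0196 and 0.0183). The dimmer EGR1 probe set went the other way, at 0.21 (adjusted p = 0.424), higher in antral granulosa in each of the cows. FOS differed by -0.14 after LH, with an interval of -0.90 to 0.62.

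Ordered by group mean, the 3 after-LH groups stood above the 3 before-LH groups for every gene of the 8 except MYC, and the values of neighbouring groups mostly overlapped. For FOS the order was membrane granulosa after LH (12.40 ± 0.47), antral granulosa after LH (12.26 ± 0.13), theca after LH (11.59 ± 0.80), theca before LH (8.75 ± 0.48), membrane granulosa before LH (7.07 ± 0.57) and antral granulosa before LH (6.93 ± 0.86; SD, n = 3 each). Only the steps from theca after LH to theca before LH and from there to membrane granulosa before LH were free of overlap. JUNB, EGR1, ATF3 and IER3 had a gap without overlap between the after-LH and before-LH groups, and IER3 another between membrane granulosa before LH (7.36 ± 0.05) and antral granulosa before LH (7.15 ± 0.08). In JUN every pair of neighbours overlapped, from membrane granulosa after LH (11.21 ± 0.69) to theca before LH (9.54 ± 0.54). In DUSP1 theca led after LH (11.29 ± 0.34) and before LH (9.94 ± 0.32), and the before-LH theca arrays overlapped those of antral granulosa after LH (10.65 ± 0.70). In MYC both theca groups came first (10.40 ± 0.07 after LH and 10.23 ± 0.42 before), followed by membrane granulosa after LH (8.23 ± 1.36) and before LH (7.71 ± 0.35) and by antral granulosa after LH (6.91 ± 1.82) and before LH (6.79 ± 1.30).

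Whether LH moved the genes by different amounts in theca and in granulosa was tested directly, as a difference of LH effects. FOS, DUSP1 and ATF3 responded less in theca than in membrane granulosa, and FOS and DUSP1 less than in antral granulosa. For FOS the LH effect was 2.84 in theca and 5.33 in membrane granulosa, a difference of -2.49 ± 0.49 (adjusted p = 0.00751), and the same -2.49 ± 0.49 against antral granulosa (adjusted p = 0.00542). The other FOS probe set gave -1.69 (adjusted p = 0.028) and -1.55 (adjusted p = 0.035). For DUSP1 the LH effect was 1.35 in theca and 2.77 in membrane granulosa, a difference of -1.41 ± 0.28 (adjusted p = 0.00777), and -1.01 ± 0.28 against the 2.37 of antral granulosa (adjusted p = 0.0361). For both genes theca started higher before LH, as given above, and ended within 0.81 of membrane granulosa. ATF3 gave -0.90 ± 0.24 against membrane granulosa (adjusted p = 0.0364), with many of its before-LH values in the dim range, and -0.60 against antral granulosa (adjusted p = 0.154).

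The 3 genes of 8 with a lesser LH effect in theca than in membrane granulosa stand beside 5.96% of all genes, and the 2 of 8 against antral granulosa beside 6.98%. The theca contrasts share the theca arrays, so these counts are not independent of each other. JUNB gave -0.08 (interval -0.71 to 0.54) and 0.04 (-0.58 to 0.67) against membrane and antral granulosa. EGR1 gave -0.95 (adjusted p = 0.118) and -0.58 (adjusted p = 0.368), JUN -0.65 (adjusted p = 0.237) and -0.57 (adjusted p = 0.303), IER3 -0.37 and -0.02, and MYC -0.36 and 0.04, none of which passed. The dimmer EGR1 probe set gave 0.08 and -0.18 against membrane and antral granulosa (adjusted p = 0.887 and 0.707). Between antral and membrane granulosa no gene of the 8 passed, and neither did any of the 24016 probe sets in limma. Of these, 2236 had an unadjusted p below 0.05, a count that includes those expected by chance at that threshold. FOS gave 0.00 between antral and membrane granulosa, with an interval of -1.07 to 1.07. The FOS difference from membrane granulosa was lost without cow B (adjusted p = 0.0561), that of ATF3 without cow A, D, F or G and with no cow term, and that of DUSP1 with no cow term (adjusted p = 0.198). The DUSP1 difference from antral granulosa was lost under 6 of 13 alternatives, among them without cow A, C, F or G, while that of FOS held under all 13 (highest adjusted p = 0.0379).

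Read on the probe set used for each gene, the after-LH cows did not rank alike for the 8 genes. For every gene except MYC, the highest or the lowest cow was the same in the 3 preparations. MYC was highest in cow A and lowest in cow C in theca, but highest in cow C and lowest in cow B in both granulosa preparations. ATF3 and IER3 were highest in cow C and lowest in cow B in 3 of 3 preparations. FOS and EGR1 were highest in cow A in 3 of 3, and EGR1, JUNB and DUSP1 lowest in cow B in 3 of 3. JUN went the other way from ATF3 and IER3 on the probe set read for it, with cow C the lowest in 3 of 3. On Bt.11159.1.S1_at and Bt.13134.1.S1_at theca after LH was instead lowest in cow B, at 8.83 and 5.33, against 9.30 and 6.40 in cow C. Before LH, FOS, ATF3 and DUSP1 were lowest in cow G in 3 of 3. The other FOS probe set was lowest in cow D in theca and membrane granulosa before LH. In antral granulosa after LH it was highest in cow C (9.81, against 9.80 in cow A). The dimmer EGR1 probe set was lowest in cow C in both granulosa preparations after LH. As deviations from the group mean over the 18 arrays, ATF3 and IER3 correlated at 0.94, JUNB and DUSP1 at 0.94, JUNB and EGR1 at 0.83 and FOS and JUN at 0.71, while FOS and IER3 gave -0.18 and JUN and IER3 -0.48. These are descriptions: the 3 arrays of a cow come from 1 follicle, so the 18 points are 6 animals. Without cow C the LH effect of ATF3 in membrane granulosa was 2.13 and that of IER3 1.46, both still past the threshold (adjusted p = 0.00125 and 0.00338). In antral granulosa they were 1.95 and 1.30 (adjusted p = 0.00217 and 0.00684), and in theca 1.14 and 1.10, against 1.92 and 1.81 with cow C, without a call either way (adjusted p = 0.142 and 0.0634 without it).

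**Figure D4:**
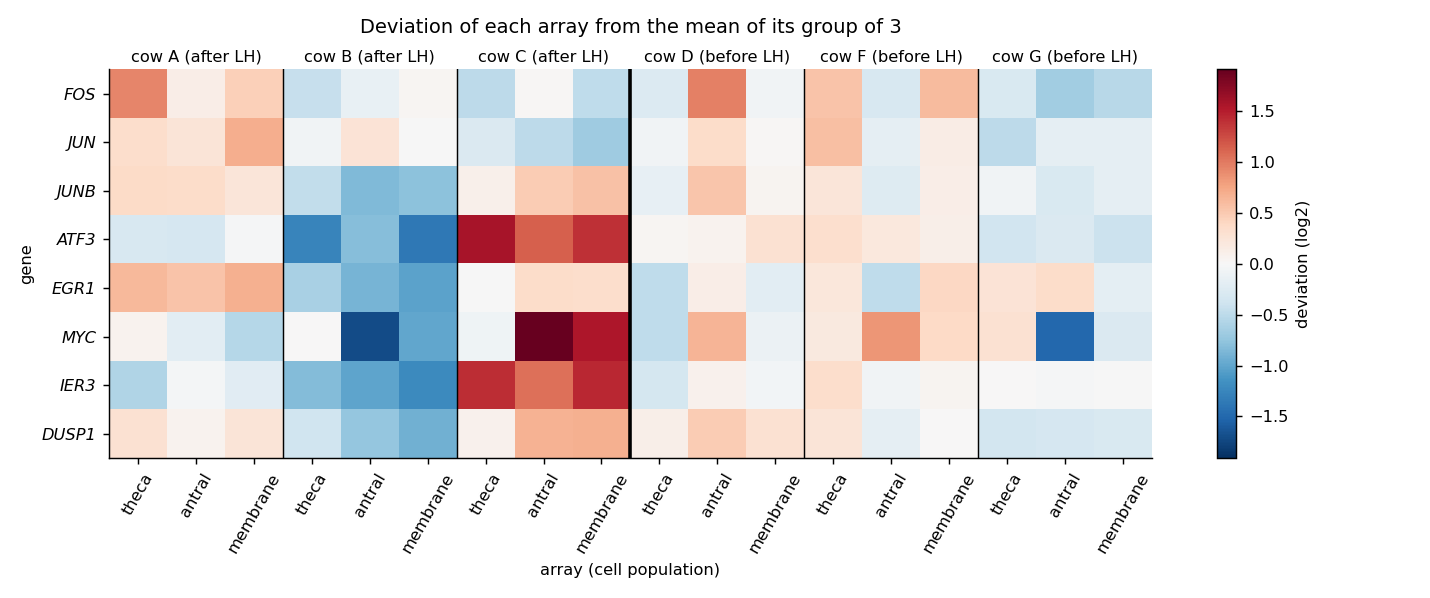
Deviation of each array from the mean of its group of 3 (colour, log2) for the 8 genes (rows) on the 18 arrays (columns, by cow). On the probe set read for each gene, cow C stands high for ATF3 and IER3 and low for JUN in theca, antral and membrane granulosa alike.

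The levels themselves, over the 18 arrays, correlated at 0.96 between JUNB and EGR1 and at 0.93 between FOS and EGR1, against 0.18 between FOS and MYC and -0.30 between JUN and MYC. Among all genes the profiles most like a member's, by Pearson correlation over the 18 arrays, were those of LOC513055 (0.99), the mitochondrial translocator protein TSPO (0.98) and the matrix protein PTX3 (0.98) for FOS. For EGR1 they were the immediate early gene IER2 (0.98), JUNB (0.96) and the acid ceramidase ASAH1 (0.95), and for JUNB they were ASAH1 (0.97), EGR1 (0.96) and the survival factor MCL1 (0.94). IER3 lay nearest to the AP-1 subunit FOSL1 (0.97), ATF3 (0.97) and SPSB1 (0.96), and ATF3 to NET1 (0.97), DAPL1 (0.97) and IER3 (0.97). JUN was nearest to TMEM37 (0.95), CPT1B (0.93) and COLGALT2 (0.93), DUSP1 to SULT1A1 (0.96), F2RL2 (0.96) and IL18 (0.96), and MYC to PLP2 (0.97), SQOR (0.96) and ENPP1 (0.95). The points share the split into after and before LH, the split into theca and granulosa and the cows.

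Genes of the surrounding pathways were read from 8 lists, of which 80 of 134 symbols had a probe set. The lists too were chosen with earlier results of these data known, so their counts describe and do not test them. Of the 80, 10 were called higher after LH and 1 lower in theca, 21 higher and 8 lower in antral granulosa, and 30 higher and 7 lower in membrane granulosa, with medians of 0.26, 0.28 and 0.48. The percentages called over all genes are those given for the LH effects above, with 2.85% lower in theca, 16.1% in antral granulosa and 12.9% in membrane granulosa.

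Of 24 other immediate early and early response genes, 7 were higher and none lower in theca, 10 higher and 1 lower in antral granulosa, and 14 higher and 1 lower in membrane granulosa, with median LH effects of 1.06, 0.93 and 1.34. TIPARP, an ADP-ribosyltransferase induced by the aryl hydrocarbon receptor, rose by 1.79 ± 0.24 in theca (adjusted p = 0.000374), 2.51 ± 0.24 in antral granulosa (adjusted p = 1.35e-06) and 2.45 ± 0.24 in membrane granulosa (adjusted p = 2.49e-06). MCL1, a BCL2 family protein that protects cells from death, rose by 1.21 in antral granulosa (adjusted p = 2.07e-05) and 1.26 in membrane granulosa (adjusted p = 1.79e-05). The kinase SGK1 rose by 4.69 ± 0.49 in antral granulosa (adjusted p = 3.74e-06). BTG1, an antiproliferative gene, was the 1 gene lower in membrane granulosa, at -1.49 ± 0.17 (adjusted p = 8.82e-06), and, named after its value was seen, also the 1 gene lower in antral granulosa, at -1.31 (adjusted p = 2.48e-05). The small GTPase RHOB and the zinc finger factor KLF10 rose in theca by 1.28 (adjusted p = 0.000847) and 1.17 (adjusted p = 0.00208). IER2, the nearest profile to EGR1, rose by 1.30 ± 0.34 in theca (adjusted p = 0.0469), 2.28 ± 0.34 in antral granulosa (adjusted p = 0.000144) and 2.29 ± 0.34 in membrane granulosa (adjusted p = 0.000162).

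As differences of LH effects between theca and membrane granulosa, 6 of these 24 early response genes passed, and they are named here after their values were seen. Of the 6, 4 differences were negative and 2 positive, beside 1097 negative and 1095 positive among all 24016 probe sets. IER2 (-0.99, adjusted p = 0.00926), SGK1 (-1.88, adjusted p = 0.0104), the NF-kappaB inhibitor NFKBIA (-1.45, adjusted p = 0.022) and the leucine zipper factor CEBPD (-1.08, adjusted p = 0.0312) had the lesser LH effect in theca, as FOS and DUSP1 did. BTG1 (1.54, adjusted p = 0.000472) and RHOB (0.95, adjusted p = 0.0381) differed in the other direction. Between theca and antral granulosa, 6 of the 24 genes passed with a negative difference and 5 with a positive one. Among all 24016 probe sets these were 1344 and 1354.

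Of 13 other AP-1 subunits and zipper partners measured, none passed in theca (median LH effect 0.28), beside 2.34% of all genes higher and 2.85% lower. In antral granulosa 1 was higher and 1 lower, beside 12.6% and 16.1% of all genes. In membrane granulosa 2 were higher and none lower, beside 13.1% and 12.9%. In antral granulosa ATF5 was lower (-0.77, adjusted p = 0.0027) and the small MAF protein MAFF higher (1.27, adjusted p = 0.0367), and in membrane granulosa CREB1 (0.83, adjusted p = 0.041) and FOSL1 (0.93, adjusted p = 0.0456) were higher. FOSB, FOSL2 and JUND, close relatives of the members, gave LH effects between -0.18 and 0.51 with no call. Of 3 genes of the EGR group, NAB2, the corepressor that EGR1 itself induces and that restrains it, rose by 1.03 in antral granulosa (adjusted p = 0.00361) and 0.81 in membrane granulosa (adjusted p = 0.0184), and SRF, the factor upstream of EGR1, rose by 0.54 in membrane granulosa (adjusted p = 0.0235).

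In the EGF and ERK list of 13 genes, 1 was higher in theca, 3 higher and 1 lower in antral granulosa, and 4 higher and 2 lower in membrane granulosa. The ERK inhibitor SPRY2 rose in the 3 preparations, by 1.19 in theca (adjusted p = 0.0469), 2.41 in antral granulosa (adjusted p = 3.31e-05) and 2.04 in membrane granulosa (adjusted p = 0.000194). MAP2K1, the kinase just above ERK, rose by 1.06 in antral granulosa (adjusted p = 0.000329) and 1.31 in membrane granulosa (adjusted p = 5.52e-05). The receptor EGFR fell below the dim limit after LH, a difference of at least 0.57 in antral granulosa (adjusted p = 0.00138) and at least 0.70 in membrane granulosa (adjusted p = 0.000838). The rest, named after their values were seen, were NRAS (0.39 in antral and 0.49 in membrane granulosa), SPRY1 (1.09 in membrane granulosa) and BRAF (-1.005 in membrane granulosa).

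The kinases that DUSP1 acts on were read in the p38 and JNK list of 8 genes, of which 2 were higher and 1 lower in theca, 3 higher and 1 lower in antral granulosa, and 3 higher and 2 lower in membrane granulosa. MAPK14, the p38 alpha kinase, rose by 0.85 in theca (adjusted p = 0.0161), 1.25 in antral granulosa (adjusted p = 0.000124) and 1.41 in membrane granulosa (adjusted p = 4.85e-05). Its activating kinases MAP2K3 and MAP2K6 also rose, MAP2K3 by 0.58 in theca, 0.64 in antral granulosa and 0.77 in membrane granulosa, and MAP2K6 by at least 1.59 in antral granulosa and by 1.94 in membrane granulosa. MAPK8, which encodes a JNK, was lower in theca (-0.56, adjusted p = 0.0407), in antral granulosa (-0.57) and in membrane granulosa (-0.62), and MAPK10, another JNK, was lower by at least 0.39 in membrane granulosa; the granulosa values of both were named after they were seen. Of 3 other MAP kinase phosphatases DUSP10 passed in membrane granulosa, higher by at least 0.47 (adjusted p = 0.0411).

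In the MYC network, of 6 genes measured, MXD3, a repressor that competes with MYC for MAX, was lower in antral granulosa (-2.25 ± 0.23, adjusted p = 2.38e-06) and lower by at least 2.54 in membrane granulosa (adjusted p = 5.19e-07), where MAX was higher by 0.44 (adjusted p = 0.0137). None of the 6 passed in theca. Of 11 heat shock and unfolded protein genes none passed in theca, 3 were higher and 3 lower in antral granulosa, and 3 were higher and 1 lower in membrane granulosa. HERPUD1, a gene of endoplasmic reticulum protein disposal, was lower in antral granulosa (-2.35, adjusted p = 9.42e-06) and lower in membrane granulosa (-2.12, adjusted p = 3.23e-05). The chaperones HSPB1 (0.90 in antral and 1.40 in membrane granulosa) and HSP90AA1 (0.56 in antral and 0.52 in membrane granulosa) were higher. The remaining calls, named after their values were seen, were HSPA5 (-0.94), HSPA1A (-1.67) and DDIT3 (0.67) in antral granulosa and DNAJA1 (1.04) in membrane granulosa.

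**Figure D5:**
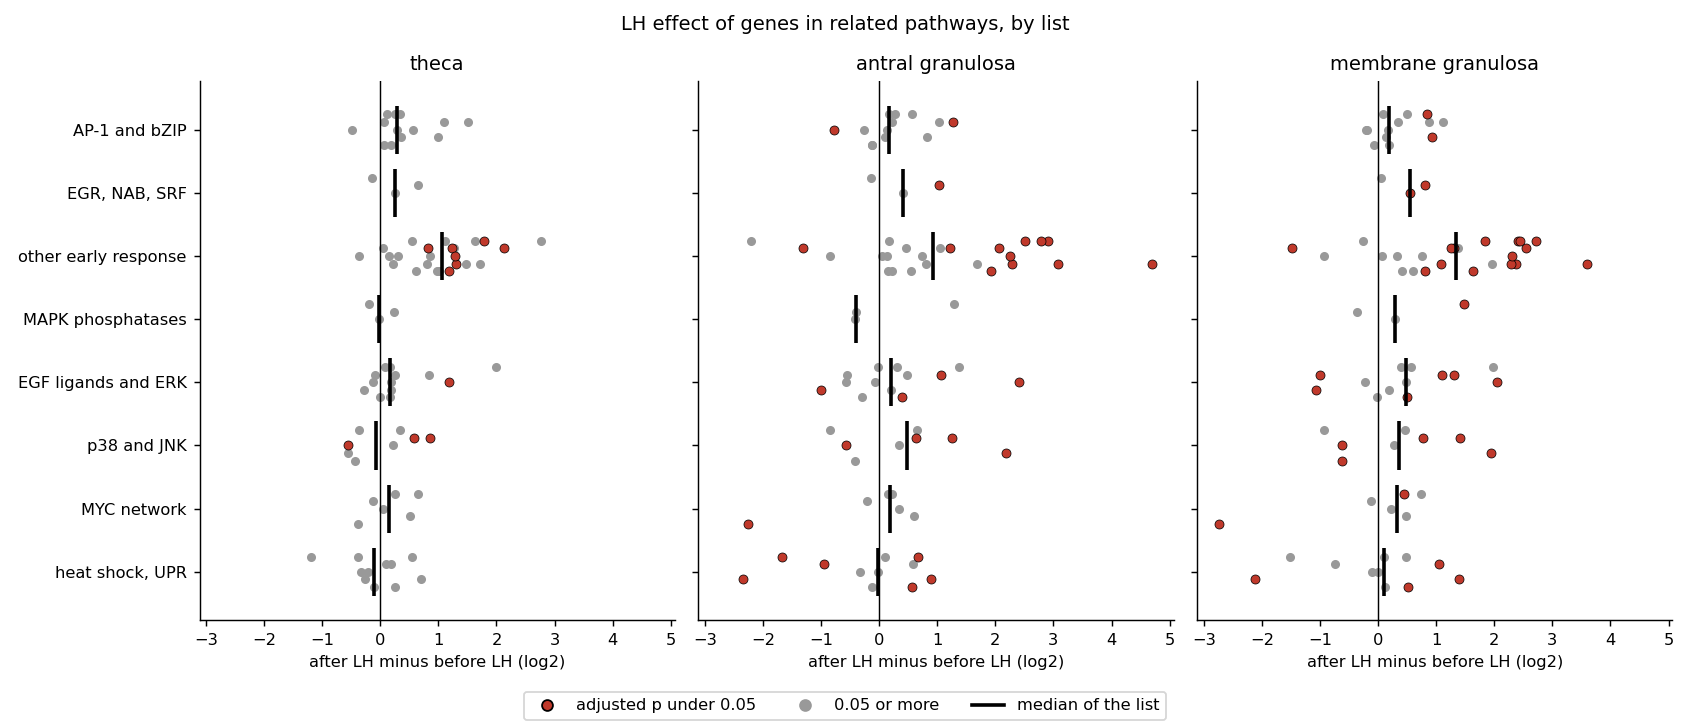
LH effect (after minus before, log2, horizontal axis) of the 80 measured genes of the 8 lists (rows) in theca, antral granulosa and membrane granulosa; each point is a gene, coloured where its adjusted p was below 0.05, and black bars are list medians. The early response list sits to the right of 0 with medians of 1.06, 0.93 and 1.34, while the heat shock list centres near 0.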

How the data were processed

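RNA of 3 cell preparations from 6 cows was hybridised to Affymetrix bovine arrays. The authors made the deposited log2 values with RMA in Partek 6.5, per the submitters' processing notes, and RMA normalizes all arrays together, so values compare between arrays; a genome build is not given in the sources used here. Of 24128 entries 112 control probe sets were left out. Symbols came from GEO's platform annotation: 13292 probe sets had 1 symbol, 86 several and 10638 none; 13263 matched RefSeq by gene ID and no symbol changed. Members and lists were chosen with earlier results of these data known. The number of arrays, 3 a group, limits the precision.

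The limma package (3.58.1, R 4.3.3) was run on all 24016 probe sets, with Benjamini-Hochberg adjustment and a threshold of 0.05. LH effects were contrasts of 6 group means with no block, since the cows differ. Their spread was pooled over the 18 arrays, 3 from each cow, which this fit takes as independent. Contrasts between preparations, and differences of LH effects, had the cow as a fixed block: the labels name the cow, and for 18 array pairs that share a cow the correlation of deviations from group means ran from -0.02 to 0.69, with 17 above 0.1. The 12 fits were tested on simulated data. Alternatives were quantile normalization, median centring, the dimmest 33.3% of probe sets left out, a fit on genes alone, a trended and robust variance prior, only the arrays compared, other blocks, other probe sets and each cow left out. Named were all members, the 3 most alike genes for each, and up to 3 called genes per list and LH effect with the smallest adjusted p. Figures were drawn with matplotlib 3.10.9 in Python 3.11.15. No batch record was used here.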

Additional observations from a re-analysis of the deposited data

Results flagged for a closer look

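5 differences of LH effects passed the test of the difference itself. Between theca and membrane granulosa these were FOS (-2.49, theca 2.84 and membrane granulosa 5.33), DUSP1 (-1.41, theca 1.35 and membrane granulosa 2.77) and ATF3 (-0.90, theca 1.92 and membrane granulosa 2.83). Between theca and antral granulosa these were FOS (-2.49, theca 2.84 and antral granulosa 5.33) and DUSP1 (-1.01, theca 1.35 and antral granulosa 2.37). The theca arrays are shared by both sets of values. With 3 arrays a group, single arrays were not tested as outliers.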

How the results depend on the processing

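Of the values of single genes under the alternatives, 1200 kept their direction and side of the threshold, 62 lost a call and 30 gained one. Another 48 turned direction with no call in either setting, 34 of them on the gene's own probe set, the MYC LH effects among them. In 4 a called value or setting turned direction, each on a further probe set: JUN Bt.13134.1.A1_at in the antral LH effect (-0.073) and in theca against membrane granulosa after LH (0.10), and EGR1 Bt.27980.1.S1_at in theca against membrane (-0.070) and antral granulosa (-0.024) before LH. FOS and JUNB kept their LH calls in the 3 preparations under all 14 alternatives. With a replicate block, which joins different cows, LH effects gave 4 genes called in theca (3 without it), 7 in antral (6) and 7 in membrane granulosa (7); same-numbered arrays before and after LH correlated at -0.17 to 0.23, above 0.1 in 2 of 9 pairs. Leaving out 1 cow at a time gave 2 to 6 calls for LH in theca (6 without cow B). With no replicate block of the cow, calls were 3 for theca against antral granulosa before LH (5 with it), 0 for theca against membrane granulosa after LH (3), 1 for theca against antral granulosa after LH (3), and 1 for the difference of LH effects of theca from membrane granulosa (3) and from antral granulosa (2). Reading the next brightest probe set gave 3 for theca against antral granulosa before LH, and 2 higher and 1 lower for theca against membrane granulosa before LH (4 higher). Leaving out 1 cow gave 0 to 4 for theca against membrane granulosa after LH (0 without cow A or B), 1 to 4 for theca against antral granulosa after LH, 0 to 1 for antral against membrane granulosa after LH and 1 to 2 for the difference between theca and antral granulosa. With only the arrays compared, antral against membrane granulosa after LH gave 2 and the difference between theca and antral granulosa 1. The cause of these changes was not tested. Values near the dim limit, as in ATF3 before LH, limit how far a fold can be read.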
